A study of Homo sapiens with 12 samples.

Results

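The genes described here carry out or drive mitosis: the cyclins and kinases that start it, the checkpoint that delays it, and the machines that condense, attach and separate chromosomes and then divide the cell. They are 49 genes taken by name from a list that was chosen with earlier results of these data known. All of them are present on the bead array, out of 20046 genes with a symbol in the platform annotation. Of the 49, 48 passed the filter on dim probes and were tested among 11423 genes. The gene left out was NCAPH, the kleisin subunit that closes the condensin ring. Its single probe was detected on 0 of 12 arrays, with raw signals of 86.5 to 122.1 and a lowest detection p-value of 0.168, so no change is given for it. The filter asks for a detection p-value under 0.01 on at least 2 arrays.

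Messenger RNA was measured on 12 single-colour Illumina bead arrays of the human glioblastoma lines DBTRG and U87, as 6 groups with 2 arrays each. Every sample is labelled as a cell line, although the extraction text of the labels speaks of frozen tissue. The DBTRG groups were untreated cells and cells given Y15, a compound that inhibits focal adhesion kinase (FAK), at 10 µM. The U87 groups were untreated cells, cells given temozolomide (TMZ, the alkylating drug used against glioblastoma), cells given Y15 at 10 µM, and cells given both drugs. Treatment lasted 24 h per the series text. The dose of TMZ is uncertain, since the sample titles say 20 µM and the series text says 100 µM. No genetic change is named for any group, and the labels do not say what the untreated cells received or whether the arrays of a group came from separate cultures. The p-values below thus rest on array-to-array spread, part or all of which may be technical.

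Cells build the mitotic machinery anew in each cycle. In resting cells a repressor complex called DREAM sits on the promoters of these genes, at a short sequence called the cell cycle genes homology region (CHR), and in cycling cells the MuvB core of that complex is joined by B-MYB and later FOXM1, which switch the same promoters on for G2 and mitosis. NF-Y, which binds the CCAAT box, commonly works beside them. Their level in a culture depends on how many cells are in G2 or mitosis and on how much of each message such a cell holds. In RNA from whole cultures, fewer dividing cells and less messenger RNA per dividing cell cannot be told apart.

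The arrays detected 14437 to 16889 probes each. The fewest were on the first array of U87 with Y15 (14437). The first untreated DBTRG array (15001) and the second array of U87 with Y15 (15169) came next. Arrays of the same group correlated at 0.986 to 0.994 over the brightest kept probe of each of the 11423 genes. VIM, NES and CD44, which mark mesenchymal glioma lines, were detected on all 12 arrays, while the astrocyte markers GFAP and S100B were detected on 0 of 12. Of the markers of other cell types, CDH5 and VWF (endothelium), CX3CR1 (microglia), CDH1 (epithelium) and PTPRC, CD3E and MS4A1 (lymphocytes) were detected on 0 of 12 arrays. The microglial marker CD68 was detected on all 12. The others differed between or within the lines: of 4 DBTRG and 8 U87 arrays, SOX2 was detected on 4 and 2, FABP7 on 4 and 0, OLIG2 on 0 and 8, CSF1R on 0 and 8, AIF1 on 1 and 6, PECAM1 on 1 and 4, EPCAM on 0 and 4 and KRT18 on 4 and 0. The part of these markers in the results below was not tested. All levels below are background-corrected, quantile-normalised log2 signals, which compare a probe between arrays and not one gene with another. Changes are differences of log2 levels ± SE, with 2 arrays per group, from a limma fit across all genes, and a gene was called where its Benjamini-Hochberg adjusted p was under 0.05.

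Y15 lowered nearly the whole set in DBTRG. Of 48 genes, 44 fell and 0 rose, against 18.4% of all genes called lower and 19.4% called higher, and the median change was -1.07 where the median of all genes was 0.01. In 30 of the 44 the fall was at least 2-fold. All 48 estimates were negative, and in 47 of 48 both treated arrays lay below both untreated arrays, an order seen for 31.6% of all genes. The largest fall was that of ANLN (anillin, the actin-binding scaffold of the cleavage furrow) at -2.01 ± 0.13, or 4.03-fold lower. MKI67 (the Ki-67 protein that coats mitotic chromosomes), CENPA (the histone that marks centromeres) and CCNA2 (cyclin A2) followed at -1.87 ± 0.24, -1.74 ± 0.12 and -1.72 ± 0.12.

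In U87 the same dose of Y15 lowered 29 of the 48 genes and raised 1, with a median change of -0.49 against a median of -0.07 over all genes. The background was 13.4% of all genes called lower and 8.6% called higher. Without any single one of the 4 arrays compared the count lower was 14 to 19, and with each array centred on the median of all its probes it was 45, with a median of -1.12 beside -0.60 over all genes. That centring called 6987 of all 11423 genes lower and 413 higher. With quantile normalisation only 4 falls were at least 2-fold: TOP2A (-1.17 ± 0.13), SMC2 (-1.06 ± 0.12), ASPM (-1.04 ± 0.11) and BUB1 (-1.02 ± 0.15). Both treated arrays lay below both untreated arrays for 44 of 48 genes, where 40.8% of all genes did so. The arrays of U87 with Y15 detected 14437 and 15169 probes, and the untreated U87 arrays 16431 and 15981. The part of that in these changes was not tested. The gene that rose was ESPL1, which encodes separase, the protease that cuts cohesin at anaphase (0.59 ± 0.17, adjusted p = 0.0296). That estimate was -0.0948 when each array was centred on the median of all its probes. The rise also lost its call without any single one of the 4 arrays compared (adjusted p = 0.0748 to 0.135).

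The lines shared 28 of the fallen genes. A further 16 fell by the test in DBTRG and not in U87, namely CCNB2, CDC25B, CKS1B, CKS2, NEK2, MAD2L1, ESPL1, CDCA3, AURKB, INCENP, BIRC5, CDCA8, NUF2, SPC25, ECT2 and FOXM1. CDCA5 fell in U87 (-0.49 ± 0.13) and was -0.26 ± 0.13 in DBTRG without passing. CDC25C, BUB3 and PTTG1 passed in neither line by their brightest probes. Passing in one line and missing in the other does not show that the lines differed, and the test of that difference is given after the roles.

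**Figure D1:**
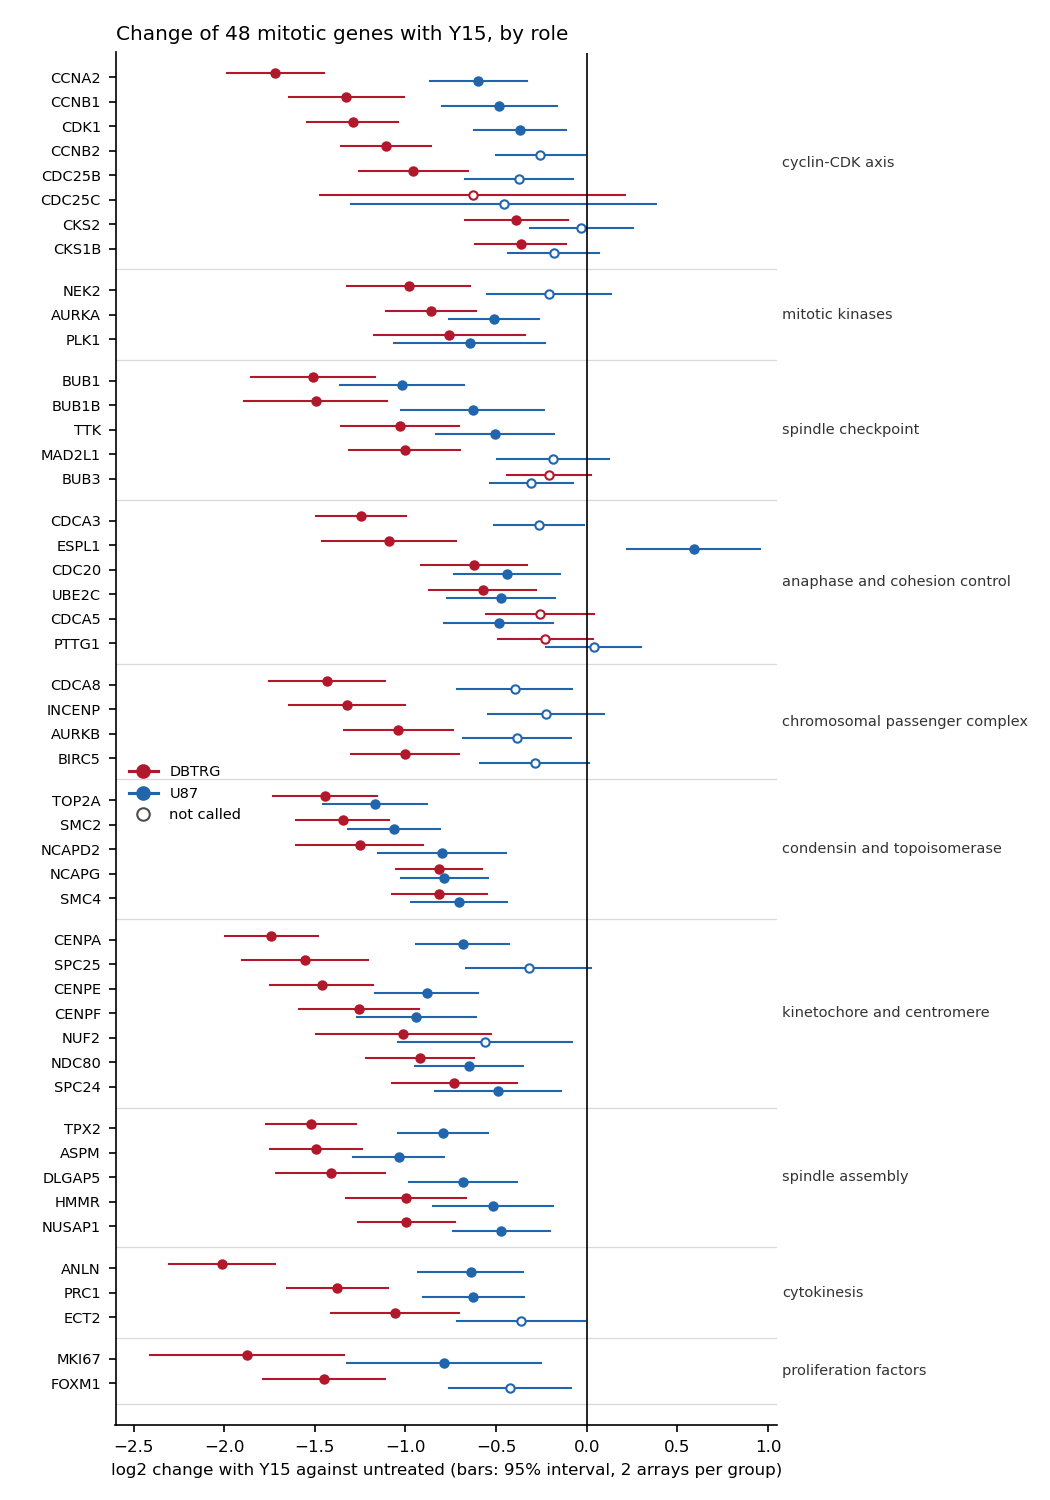
Log2 change with Y15 against untreated cells for the 48 tested genes, grouped by role, with DBTRG in red and U87 in blue; bars are 95% intervals, filled points were called and open points were not. All DBTRG points lie left of 0, and the only U87 gene called to the right of 0 is ESPL1, whose U87 estimate turns to -0.0948 when arrays are centred on the median of all probes.

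These genes moved together, and their promoters are described here for the elements named above. RefSeq (GRCh38.p14) gave promoter windows of 250 bases before to 50 after the start for 42 of the 49 genes. The CHR letters TTTGAA or TTTAAA were searched on both strands and stood in a window of 36 of 42 genes (85.7%), where 24.7% of 15843 protein-coding genes and 24% of all 35116 windows held them. Of the 2 forms, TTTGAA stood in 31 of 42 (73.8%; 15.8% of protein-coding genes) and TTTAAA in 12 of 42 (28.6%; 12.8%). CCAAT on either strand stood in 33 of 42 (78.6%; 42.1%), and a CHR together with CCAAT in 27 of 42 (64.3%; 10.4%). Several genes have more than 1 window, and overlapping windows repeat a match. Over all windows there were 62 CHR copies with a median position of -30 from the start, and 38 of them lay within 60 bases of it.

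A few of these promoters are printed from 130 bases before to 20 after the start, 5′ to 3′ on the gene's own strand, with capitals marking both CHR forms and the CCAAT box. An element on the opposite strand reads reversed and complemented, so that TTTGAA appears as TTCAAA, and a box spelt CCAAT appears as ATTGG. They are the promoters of ANLN and MKI67, with the largest DBTRG falls, of CENPA and CCNB1, which hold both kinds of element, of BUB1, which fell in both lines and holds no CHR letters, of ESPL1, called in opposite directions in the lines with quantile normalisation, and of PTTG1, which was called in neither. Their positions are chr7:36389732-36389881 (plus strand), chr10:128126404-128126553 (minus), chr2:26785926-26786075 (plus), chr5:69167020-69167169 (plus), chr2:110678044-110678193 (minus), chr12:53268169-53268318 (plus) and chr5:160421725-160421874 (plus).
ANLN: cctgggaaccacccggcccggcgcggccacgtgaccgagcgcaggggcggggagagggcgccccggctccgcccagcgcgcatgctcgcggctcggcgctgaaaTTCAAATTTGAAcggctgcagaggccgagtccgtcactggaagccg
MKI67: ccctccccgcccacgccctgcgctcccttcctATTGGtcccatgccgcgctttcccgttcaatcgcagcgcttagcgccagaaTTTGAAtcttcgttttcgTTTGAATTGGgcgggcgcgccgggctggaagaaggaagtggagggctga
CENPA: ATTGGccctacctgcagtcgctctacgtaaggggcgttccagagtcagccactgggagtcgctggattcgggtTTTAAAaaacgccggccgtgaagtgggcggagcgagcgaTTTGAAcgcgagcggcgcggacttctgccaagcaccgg
CCNB1: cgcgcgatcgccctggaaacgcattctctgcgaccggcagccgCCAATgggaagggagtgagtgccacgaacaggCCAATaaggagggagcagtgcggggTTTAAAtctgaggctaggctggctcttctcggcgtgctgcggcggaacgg
BUB1: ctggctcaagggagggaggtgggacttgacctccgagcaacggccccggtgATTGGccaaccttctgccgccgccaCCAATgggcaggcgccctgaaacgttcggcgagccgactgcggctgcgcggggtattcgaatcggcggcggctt
ESPL1: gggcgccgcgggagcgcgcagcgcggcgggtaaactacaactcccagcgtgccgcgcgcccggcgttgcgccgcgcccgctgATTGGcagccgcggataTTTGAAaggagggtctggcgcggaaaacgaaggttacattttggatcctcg
PTTG1: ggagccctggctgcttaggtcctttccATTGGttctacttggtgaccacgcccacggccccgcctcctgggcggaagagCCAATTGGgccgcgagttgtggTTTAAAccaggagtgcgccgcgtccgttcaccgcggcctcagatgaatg
Touching or overlapping copies run together, as in ANLN, where 2 CHR copies on opposite strands meet, and in MKI67, where a CHR and a CCAAT share a base.

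The letters stood both in genes that fell and in genes that did not. In DBTRG, 33 of the 38 fallen genes with a window held a CHR, as did 2 of the 3 that were not called, CDC25C and PTTG1. In U87 the counts were 21 of 25 fallen genes, 13 of 15 that were not called, and ESPL1, the gene that rose. BUB1, CCNA2 and SPC24, which fell in both lines, held neither CHR form in their windows. A match is a description of letters, and its absence says only that these letters are not in this window.

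**Figure D2:**
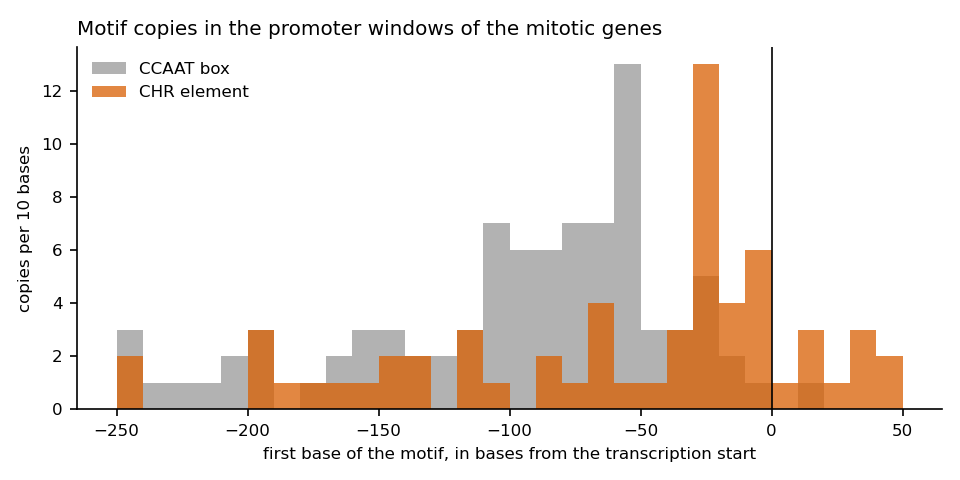
Positions of the CHR letters (orange) and CCAAT boxes (grey) in the promoter windows of the genes, on either strand, counted as copies per 10 bases along the distance from the transcription start; genes with several windows are counted once per window. CHR copies have a median position of -30, and 38 of 62 lie within 60 bases of the start.

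The cyclin-CDK axis starts mitosis: cyclins A and B bind CDK1, the CDC25 phosphatases remove its inhibitory phosphates, and the small CKS subunits help it reach its substrates. In DBTRG 7 of 8 of these genes fell (median -1.03), and in U87 3 of 8 did (median -0.37). The CCNA2 level was 10.78 and 10.62 on the untreated DBTRG arrays and 8.96 and 8.995 on the Y15 arrays, so each treated array lay over 1 log2 unit below each untreated one. In U87 its level was 9.79 and 9.79 on the untreated U87 arrays and 9.17 and 9.21 on the Y15 arrays, a change of -0.60 ± 0.12. The gene of the axis that moved least in DBTRG was CKS1B, at 11.37 and 11.44 on the untreated DBTRG arrays and 11.13 and 10.95 on the Y15 arrays (-0.36 ± 0.11, adjusted p = 0.0277). Its U87 levels were 11.59 and 11.54 on the untreated U87 arrays and 11.32 and 11.44 on the Y15 arrays, which differed by less than the test could call (-0.18 ± 0.11). CDK1 fell by 2.45-fold in DBTRG and by 1.29-fold in U87, and CCNB1, its main mitotic cyclin, changed by -1.33 and -0.48. CCNB2 and CDC25B fell in DBTRG (-1.11 and -0.96) and did not pass in U87 (-0.26 ± 0.11 and -0.38 ± 0.13). CDC25C was -0.63 ± 0.38 by its brightest probe, whose 2 Y15 arrays read 7.42 and 5.85, while its other 2 probes were called lower at -1.40 and -1.37.

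The mitotic kinases PLK1, AURKA and NEK2 ripen and part the centrosomes and build the spindle poles. All 3 fell in DBTRG (median -0.86), and PLK1 and AURKA fell in U87. NEK2, which loosens the link between centrosomes, moved most in DBTRG, with levels of 9.30 and 9.21 on the untreated DBTRG arrays and 8.44 and 8.10 on the Y15 arrays. In U87 NEK2 was at 8.41 and 8.77 on the untreated U87 arrays and 8.30 and 8.47 on the Y15 arrays, and these ranges overlapped. PLK1 moved least, with levels of 7.21 and 7.73 on the untreated DBTRG arrays and 6.85 and 6.57 on the Y15 arrays (-0.76 ± 0.19). Its U87 levels of 8.25 and 8.07 on the untreated U87 arrays and 7.37 and 7.65 on the Y15 arrays gave a change of -0.65 ± 0.19, again without overlap.

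The spindle checkpoint holds anaphase until every chromosome is attached. BUB1 and TTK are its kinases at the kinetochore, and BUB1B, BUB3 and MAD2L1 form the complex that blocks CDC20. In DBTRG 4 of 5 fell (median -1.03) and in U87 3 of 5 (median -0.51). BUB1 levels were 9.001 and 9.005 on the untreated DBTRG arrays and 7.73 and 7.25 on the Y15 arrays, and in U87 9.42 and 9.65 on the untreated U87 arrays and 8.56 and 8.47 on the Y15 arrays, so the treated arrays of both lines lay well below the untreated ones. BUB1B and TTK fell in both lines (-1.50 and -1.03 in DBTRG, -0.63 and -0.51 in U87). MAD2L1 was -1.003 ± 0.14 in DBTRG and -0.19 ± 0.14 in U87, where it did not pass. BUB3, which brings BUB1 and BUB1B to the kinetochore, was at 11.98 and 12.08 on the untreated DBTRG arrays and 11.89 and 11.75 on the Y15 arrays (-0.21 ± 0.10). In U87 BUB3 was at 11.97 and 11.94 on the untreated U87 arrays and 11.66 and 11.64 on the Y15 arrays (-0.31 ± 0.10, adjusted p = 0.0603), so its arrays did not overlap there either, although the change did not pass. Of its 2 dimmer probes, 1 was called lower in DBTRG (-0.74, adjusted p = 0.0143 in the limma fit over all probes) and the other was at -0.44 without a call.

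Anaphase and cohesion control was the group that moved least in DBTRG, with 4 of 6 genes lower and a median of -0.60. CDC20 activates the anaphase-promoting complex and UBE2C is a ubiquitin-conjugating enzyme that works with it, and these fell in both lines (-0.62 and -0.57 in DBTRG, -0.44 and -0.47 in U87). PTTG1 (securin) keeps separase inactive until anaphase. Its level was 12.09 and 12.10 on the untreated DBTRG arrays and 11.95 and 11.78 on the Y15 arrays (-0.23 ± 0.12), and 11.73 and 11.97 on the untreated U87 arrays and 11.93 and 11.85 on the Y15 arrays, where the groups overlapped (0.04 ± 0.12). CDCA3, an adaptor of cell-cycle protein breakdown, was at 9.96 and 10.06 on the untreated DBTRG arrays and 8.85 and 8.68 on the Y15 arrays (-1.25 ± 0.11). In U87 it was at 9.47 and 9.58 on the untreated U87 arrays and 9.26 and 9.26 on the Y15 arrays (-0.26 ± 0.11), which did not pass. CDCA5 (sororin) protects cohesin on replicated chromosomes, and it was the gene called lower in U87 and not in DBTRG.

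Separase itself was the gene whose calls went opposite ways in the lines, with the limits on its U87 rise given above. ESPL1 levels were 7.94 and 8.30 on the untreated DBTRG arrays and 6.98 and 7.08 on the Y15 arrays, a fall of 2.13-fold (-1.09 ± 0.17, adjusted p = 0.000590). In U87 they were 7.87 and 7.86 on the untreated U87 arrays and 8.39 and 8.52 on the Y15 arrays, so every treated array was above every untreated one. With both drugs ESPL1 was at 8.36 and 8.42, and with TMZ at 7.35 and 7.81. Against TMZ alone the combination raised ESPL1 by 0.81 ± 0.17 (adjusted p = 0.00646), a call lost without the first TMZ array (adjusted p = 0.0560). It had 1 probe, so no second probe could be set beside these values.

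The chromosomal passenger complex corrects faulty spindle attachments and later marks the division plane. It consists of the kinase AURKB with INCENP, BIRC5 (survivin) and CDCA8 (borealin). All 4 fell in DBTRG (median -1.18), and 0 of 4 passed in U87 (median -0.34), where the limma fit gave an unadjusted p under 0.05 for 2 of them. CDCA8 levels were 9.76 and 9.83 on the untreated DBTRG arrays and 8.55 and 8.18 on the Y15 arrays (-1.43 ± 0.14) against 9.43 and 9.51 on the untreated U87 arrays and 9.14 and 9.01 on the Y15 arrays (-0.40 ± 0.14, adjusted p = 0.0745). BIRC5 levels were 10.54 and 10.58 on the untreated DBTRG arrays and 9.76 and 9.36 on the Y15 arrays (-1.001 ± 0.13) against 10.26 and 10.24 on the untreated U87 arrays and 9.89 and 10.03 on the Y15 arrays (-0.29 ± 0.13). For both genes the treated arrays of each line lay below the untreated ones, by less in U87. INCENP was not detected on either Y15 array of DBTRG, which makes it at least 2.13-fold lower there, and its second, dimmer probe gave 0.22 without a call. With INCENP at that bound the DBTRG median of the complex is -1.06.

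Condensin folds replicated DNA into rods, and TOP2A, topoisomerase II alpha, untangles it. SMC2 and SMC4 are the ATPase arms of condensin, and NCAPG and NCAPD2 are subunits of condensin I. All 5 fell in both lines, with medians of -1.25 in DBTRG and -0.80 in U87, the lowest median of any role in U87. TOP2A was at 11.94 and 11.92 on the untreated DBTRG arrays and 10.32 and 10.65 on the Y15 arrays (-1.44 ± 0.13) and at 11.54 and 11.61 on the untreated U87 arrays and 10.45 and 10.37 on the Y15 arrays (-1.17 ± 0.13), a fall of 2.72-fold and 2.25-fold. SMC4, which moved least in DBTRG, was at 10.57 and 10.77 on the untreated DBTRG arrays and 9.96 and 9.76 on the Y15 arrays (-0.81 ± 0.12) and at 10.64 and 10.73 on the untreated U87 arrays and 9.94 and 10.03 on the Y15 arrays (-0.71 ± 0.12). Treated and untreated arrays of SMC4 did not overlap in either line. SMC2 changed by -1.35 and -1.06, NCAPD2 by -1.25 and -0.80, and NCAPG by -0.82 and -0.79. A dim probe of SMC4 gave 0.00 in DBTRG, and its other probe was called lower.

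At the kinetochore, the NDC80, NUF2, SPC24 and SPC25 proteins form the complex that grips microtubules, CENPA is the histone that marks the site, CENPE is a motor that gathers chromosomes to the plate, and CENPF is a large protein of the outer layer. All 7 fell in DBTRG (median -1.26) and 5 of 7 in U87 (median -0.65). CENPA levels were 9.21 and 9.13 on the untreated DBTRG arrays and 7.41 and 7.45 on the Y15 arrays, 3.34-fold lower. In U87 they were 9.14 and 8.96 on the untreated U87 arrays and 8.42 and 8.31 on the Y15 arrays, 1.61-fold lower. SPC24 moved least in DBTRG, at 8.88 and 9.21 on the untreated DBTRG arrays and 8.35 and 8.29 on the Y15 arrays (-0.73 ± 0.16), and was at 9.17 and 9.34 on the untreated U87 arrays and 8.74 and 8.79 on the Y15 arrays (-0.49 ± 0.16). SPC25, its direct partner, changed by -1.55 ± 0.16 in DBTRG and -0.32 ± 0.16 in U87, the latter without a call. NUF2 was the other gene without a call in U87 (-0.56 ± 0.22), although its second probe passed there at -0.94. CENPE and CENPF changed by -1.46 and -1.26 in DBTRG and by -0.88 and -0.94 in U87.

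Spindle assembly factors fell in both lines for 5 of 5 genes (medians -1.41 and -0.68). TPX2 releases spindle growth near chromosomes and activates AURKA, and its levels were 10.95 and 10.87 on the untreated DBTRG arrays and 9.50 and 9.29 on the Y15 arrays (-1.52 ± 0.11). In U87 TPX2 was at 10.49 and 10.58 on the untreated U87 arrays and 9.76 and 9.72 on the Y15 arrays (-0.79 ± 0.11). NUSAP1, a microtubule bundler, moved least, at 11.15 and 11.28 on the untreated DBTRG arrays and 10.29 and 10.15 on the Y15 arrays (-0.996 ± 0.12) and at 10.49 and 10.23 on the untreated U87 arrays and 9.90 and 9.89 on the Y15 arrays (-0.47 ± 0.12). Neither gene had overlapping groups. ASPM, which sits at spindle poles, changed by -1.49 and -1.04, DLGAP5, which stabilises the fibres at kinetochores, by -1.41 and -0.68, and HMMR, a microtubule-associated protein, by -0.999 and -0.51.

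Cytokinesis genes held the largest fall. ANLN levels were 10.95 and 10.91 on the untreated DBTRG arrays and 8.97 and 8.87 on the Y15 arrays, and 9.37 and 9.31 on the untreated U87 arrays and 8.61 and 8.78 on the Y15 arrays (-0.64 ± 0.13). ECT2, the exchange factor that activates RhoA for the contractile ring, was at 9.54 and 9.77 on the untreated DBTRG arrays and 8.55 and 8.66 on the Y15 arrays (-1.06 ± 0.16) and at 8.76 and 9.05 on the untreated U87 arrays and 8.54 and 8.54 on the Y15 arrays (-0.36 ± 0.16, adjusted p = 0.134). The U87 arrays of ECT2 did not overlap, although the change did not pass. PRC1, which bundles the central spindle, fell in both lines (-1.38 and -0.63).

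Of the proliferation factors, FOXM1 is the transcription factor that switches on many of the genes above, and MKI67 is the usual label of dividing cells. FOXM1 levels were 10.13 and 10.14 on the untreated DBTRG arrays and 8.81 and 8.56 on the Y15 arrays (-1.45 ± 0.15) and 9.04 and 8.98 on the untreated U87 arrays and 8.42 and 8.75 on the Y15 arrays (-0.42 ± 0.15, adjusted p = 0.0714). MKI67 levels were 7.49 and 7.93 on the untreated DBTRG arrays and 5.65 and 6.03 on the Y15 arrays (-1.87 ± 0.24), and 6.27 and 6.22 on the untreated U87 arrays and 5.18 and 5.73 on the Y15 arrays (-0.79 ± 0.24). MKI67 was dim in treated U87, where 1 of 2 Y15 arrays detected it. Beside these falls, CDKN1A (p21, the CDK inhibitor that p53 induces) rose by 1.28 ± 0.10 in DBTRG and 1.07 ± 0.10 in U87, and GADD45A, a stress-induced gene, rose by 3.13 ± 0.13 and 1.71 ± 0.13. Their part in the falls was not tested.

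**Figure D3:**
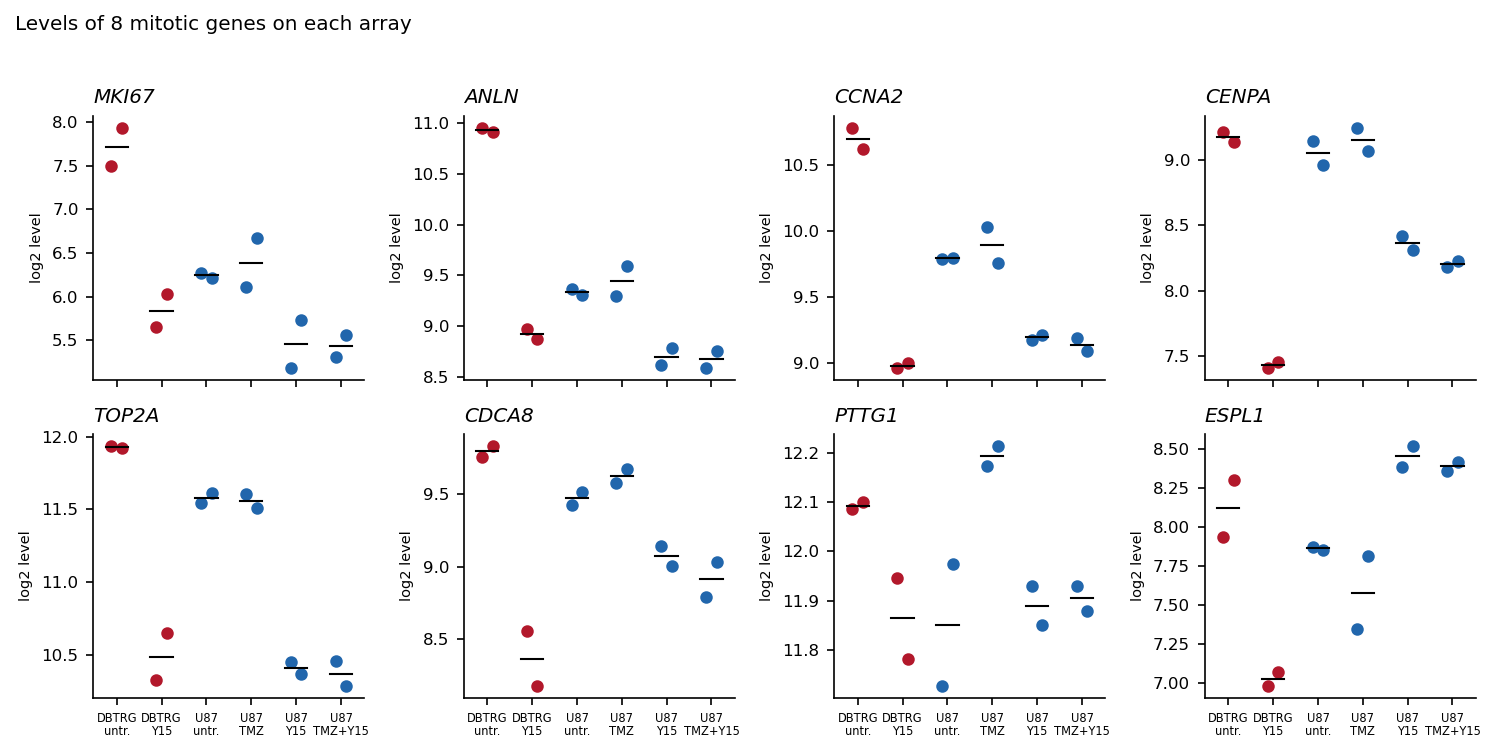
Log2 level of 8 genes on each of the 12 arrays, DBTRG in red and U87 in blue; points are single arrays and bars group means, and each panel has its own scale. In MKI67, ANLN, CCNA2, CENPA, TOP2A and CDCA8 the Y15 arrays lie below the untreated arrays of the same line, PTTG1 stays between 11.73 and 12.21, and ESPL1 is lowest in DBTRG with Y15 and highest in U87 with Y15.

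The difference between the lines in their response to Y15 was tested as a term of its own, the DBTRG change less the U87 change. It was called in 22 of 48 genes, all with the lower change in DBTRG, against 7.56% of all genes called in that direction. The estimate was negative in 46 of 48 genes, with a median of -0.55 beside 0.07 over all genes. That direction depended on the scaling, and the U87 change of all genes had a median of -0.07 with quantile normalisation and -0.60 with centring on all probes. When each array was centred on the median of all its probes, the all-gene median of the difference was 0.70. Of all 11423 genes, 303 were then called lower and 5879 higher, and of the 48, 1 was called lower and 5 higher. Without the second U87 Y15 array the count lower was 13. When each array was centred on the median of its kept probes, 18 genes were called lower and 0 higher. Relative to the median of all genes, the median of the 48 was -0.62 with quantile normalisation and -0.42 with either centring.

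ANLN and ESPL1 had the smallest p-values. The ANLN difference was -1.37 ± 0.19 (adjusted p = 0.000966), and ANLN had started 1.60 ± 0.13 higher in untreated DBTRG, so that after Y15 the DBTRG arrays (8.97 and 8.87) and U87 arrays (8.61 and 8.78) were close. The ESPL1 difference was -1.68 ± 0.23 (adjusted p = 0.00116) and remained called under all 17 alternatives tried, which held for none of the other 21 called genes. It was -0.84 when arrays were centred on all probes. CCNA2 (-1.12 ± 0.17), SPC25 (-1.23 ± 0.22), MKI67 (-1.09 ± 0.34), CENPA (-1.06 ± 0.16), CDCA8 (-1.03 ± 0.20) and FOXM1 (-1.02 ± 0.21) also differed by over 1 log2 unit with quantile normalisation. INCENP, whose DBTRG fall is known only as a bound, had a difference of -0.87 at that bound.

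By role, the difference was called in 4 of 4 chromosomal passenger genes (median -0.79 with INCENP at its bound), in 4 of 8 of the cyclin-CDK axis, 3 of 7 kinetochore genes, 2 of 3 cytokinesis genes, 2 of 5 checkpoint genes, 2 of 5 spindle genes, 2 of 6 anaphase genes, 1 of 3 kinases and both proliferation factors. These calls are by the brightest probes, and the dimmer second probes of INCENP (0.62) and BIRC5 (-0.57) were not called. It was called in 0 of 5 condensin and topoisomerase genes, whose differences ran from -0.45 (NCAPD2) to -0.03 (NCAPG), and whose 95% intervals, which together ran from -0.95 to 0.31, each included 0. Centring on all probes moved the all-gene median of the difference to 0.70 and those 5 genes to between 0.37 and 0.78. NCAPG and SMC4 were then called higher, a larger fall in U87, where 5879 of all 11423 genes were called higher. The same centring moved AURKB and BIRC5 to 0.16 and 0.08 without a call. These differences are between genes of one set, and no test compared the roles with each other.

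**Figure D4:**
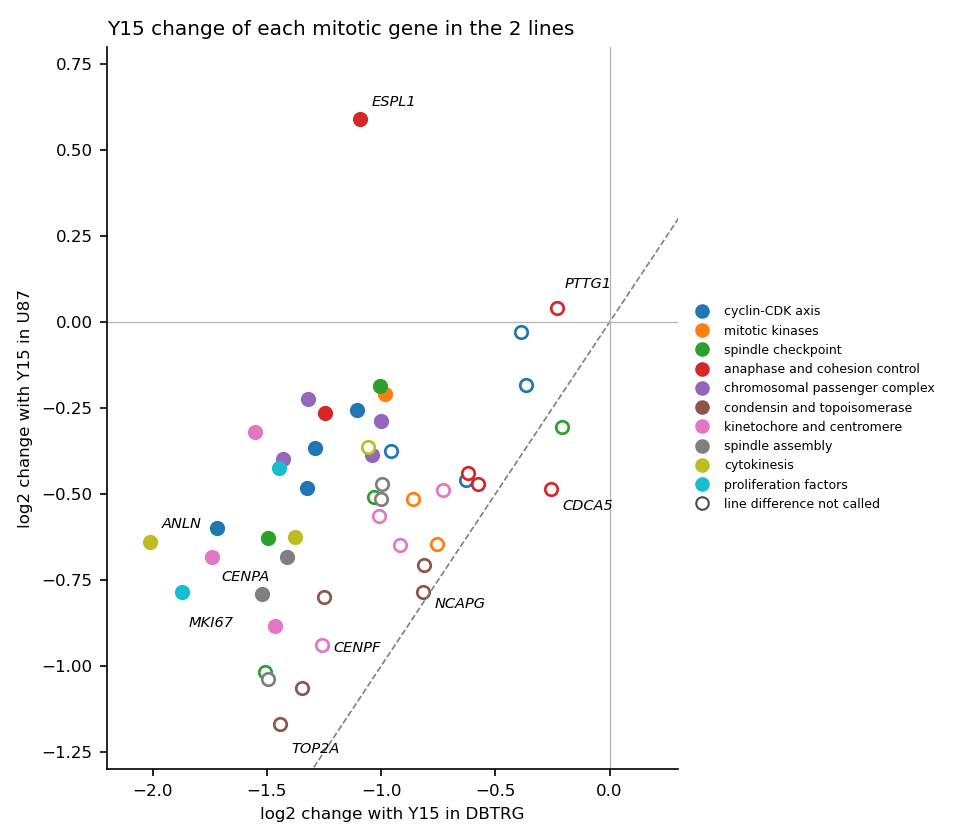
Log2 change with Y15 in DBTRG (x axis) against that in U87 (y axis) for each of the 48 genes, coloured by role; filled points are genes whose line difference was called, and the dashed line marks equal change. With quantile normalisation 46 of 48 points lie above the line, ESPL1 farthest, and 0 of the 5 condensin and topoisomerase points are filled. Centring arrays on all probes turns most of these differences positive, beside an all-gene median of 0.70.

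TMZ alone called none of the 48 genes in U87. The limma fit gave 0 calls and an unadjusted p under 0.05 for 2 of 48 genes, CCNB2 (0.36 ± 0.11) and PTTG1 (0.34 ± 0.12), both with an adjusted p of 0.9997, where 0.00875% of all genes were called. The median change was 0.08, the estimates ran from -0.35 (BUB1B) to 0.36 (CCNB2), and the median 95% half-width was 0.30 on the log2 scale. PTTG1 read 12.17 and 12.21 on the TMZ arrays, above all other U87 arrays. CDKN1A did rise with TMZ (0.93 ± 0.10, adjusted p = 0.0286), and GADD45A did not pass (-0.11 ± 0.13).

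With both drugs, 28 of 48 genes fell and ESPL1 rose (0.53 ± 0.17, adjusted p = 0.0447), where 13.1% of all genes were called lower and 9.89% higher, and the median change was -0.51. The ESPL1 call held under 6 of 13 alternatives: it was lost with either centring (0.33, adjusted p = 0.185 on all probes), with no filter and without any single one of the 4 arrays compared. The count lower was 17 without the second untreated U87 array and 18 without the second array with both drugs. Of the genes lower with Y15 alone, 26 were also lower with both drugs, a count that shares the same untreated arrays. CDK1, PLK1 and NDC80 passed with Y15 alone (-0.37, -0.65 and -0.65) and not with both (-0.19 ± 0.11, -0.47 ± 0.19 and -0.38 ± 0.13), and CDCA8 and ECT2 passed with both (-0.56 and -0.52) and not with Y15 alone. The largest falls with both drugs were those of ASPM (-1.23 ± 0.11), TOP2A (-1.21 ± 0.13) and CENPE (-1.20 ± 0.13). TOP2A read 11.60 and 11.51 with TMZ, 10.45 and 10.37 with Y15 and 10.45 and 10.28 with both, so the arrays with Y15 lay together whether or not TMZ was present.

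Adding TMZ to Y15 was tested directly. Against Y15 alone the combination called 0 of 48 genes, where 0.298% of all genes were called, with an unadjusted p under 0.05 for SPC24 (-0.35 ± 0.16) and CENPE (-0.32 ± 0.13). The median was -0.02 and the estimates ran from -0.35 to 0.29. With centring on all probes this comparison called 16 of the 48 genes, all higher, beside an all-gene median of 0.43. That centring called 3642 of all 11423 genes higher and 76 lower. Against TMZ alone the combination lowered 30 of 48 genes and raised ESPL1, where 14.5% of all genes were called lower and 10.9% higher, with a median of -0.59. The joint term, which asks whether the change with both drugs differs from the sum of the single changes, was called for 0 of 48 genes and for 0% of all genes. Its smallest adjusted p was 0.508 for SPC24 (-0.57 ± 0.22), the only gene with an unadjusted p under 0.05, and its median 95% half-width was 0.42, which limits the size of joint effect that 2 arrays per group could resolve.

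**Figure D5:**
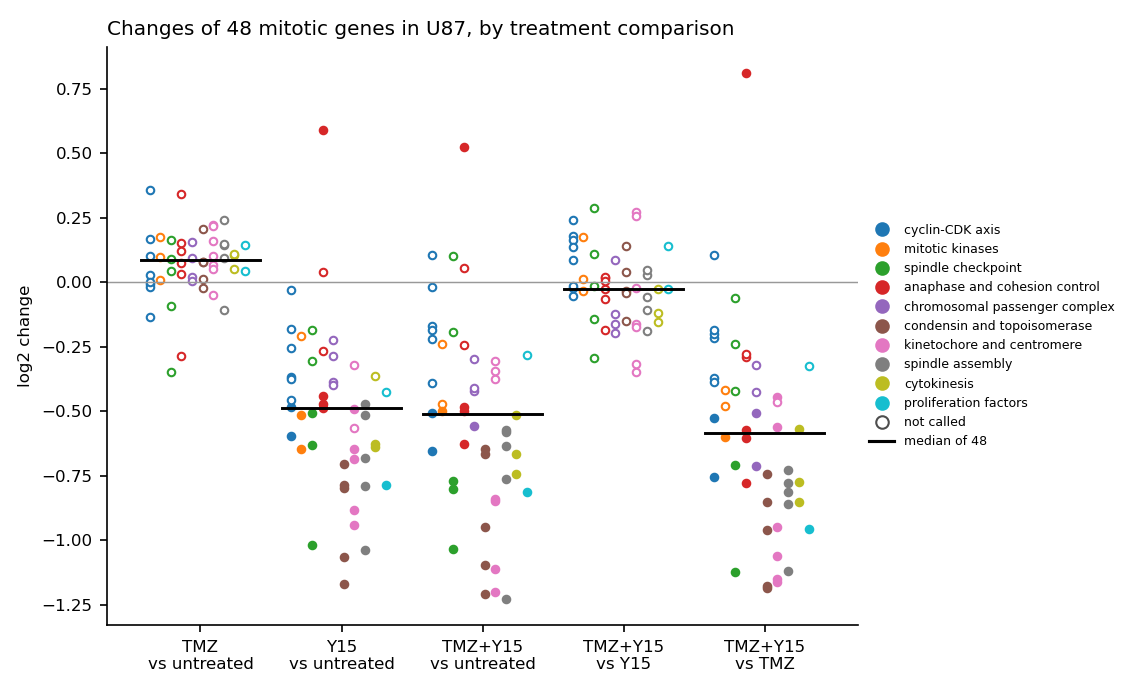
Log2 change of the 48 genes in 5 comparisons of U87 groups, coloured by role, with filled points for called genes and a bar at the median. The medians are 0.08 for TMZ, -0.49 for Y15, -0.51 for both drugs, -0.02 for both against Y15 and -0.59 for both against TMZ; the comparisons share groups. TMZ against untreated and both against Y15 have 0 filled points, and in the other comparisons the highest filled point is ESPL1, whose rise with Y15 is -0.0948 when arrays are centred on all probes.

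In untreated DBTRG 18 of 48 genes were higher than in U87 and 10 lower, where 26.8% of all genes were called higher and 32.5% lower. The 28 called of 48 lie near the share of all genes that differed between the lines (59.3%). Without the first untreated DBTRG array 6 were lower, and without the second untreated U87 array 5. ANLN (1.60 ± 0.13), MKI67 (1.47 ± 0.24), CDC25B (1.34 ± 0.13), FOXM1 (1.13 ± 0.15) and MAD2L1 (1.06 ± 0.14) were highest relative to U87. INCENP (-1.03 ± 0.14), NDC80 (-0.71 ± 0.13), PLK1 (-0.69 ± 0.19) and NUF2 (-0.59 ± 0.22) were lowest. All 3 cytokinesis genes and both proliferation factors were higher in DBTRG. With centring on all probes the split was 4 higher and 20 lower, and CCNB1, CDCA3, SMC2, TOP2A and TPX2 changed sign among the calls. That centring called 1494 of all 11423 genes higher in DBTRG and 5710 lower.

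Other genes of the same pathways were read from 6 lists, whose counts stand beside 18.4% of all genes lower and 19.4% higher in DBTRG, and 13.4% lower and 8.6% higher in U87. The medians of all genes were 0.01 and -0.07. Of 32 tested kinetochore and centromere genes outside the set, 20 fell in DBTRG and 0 rose, and 14 fell in U87 (medians -0.67 and -0.44). SGO2 (shugoshin 2, a guardian of centromeric cohesion), CENPK and HJURP (the chaperone that loads CENPA) changed by -1.51, -1.35 and -1.13 in DBTRG. KNL1, the platform that recruits BUB1, changed by -1.18 in U87. Among 13 cohesin and condensin II genes, 8 fell and 2 rose in DBTRG and 4 fell in U87 (medians -0.75 and -0.33). The condensin II subunits NCAPG2 and NCAPD3 changed by -1.44 and -1.37 in DBTRG and by -0.62 and -0.60 in U87, and PDS5B, a cohesin regulator, by -1.28 and -1.41.

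Of 15 regulators of mitotic entry and exit, 10 fell and 1 rose in DBTRG and 7 fell in U87 (medians -0.64 and -0.43). CCNF, the cyclin F subunit of a ubiquitin ligase, changed by -1.19 and -0.92 in the lines, BORA, an activator of AURKA and PLK1, by -1.13 in DBTRG, and HASPIN, the kinase that guides the passenger complex to centromeres, by -1.39 in U87. Of 16 tested genes of the anaphase-promoting complex, 4 fell and 2 rose in DBTRG and 4 fell in U87 (medians -0.21 and -0.25), with ANAPC16 at 0.94 and ANAPC15 at -0.84 in DBTRG. Of 13 subunits of DREAM, MuvB, their E2F and DP partners and NF-Y, 5 fell and 1 rose in DBTRG and 4 fell and 1 rose in U87 (medians -0.09 and -0.18). The DP partner TFDP1 and the pocket protein RBL2 changed by -1.25 and -1.03 in DBTRG, and RBL1 by -1.19 in U87. Of 5 CDK inhibitors, CDKN1A and CDKN1B (0.34) rose and CDKN3 (-0.75) fell in DBTRG, and CDKN1A rose in U87 (medians -0.31 and 0.04). No test compared the lists with each other.

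Probes other than the brightest were available for 22 genes (26 probes). In DBTRG 24 of 26 had the sign of the brightest probe, 20 were called lower and 0 higher. In U87 with Y15, 23 of 26 had the same sign, 9 were called lower and 0 higher. The UBE2C fall in U87 (-0.47) was not shared by its dim second probe (0.12), and neither probe of CKS2 passed there. NUSAP1 fell further by its second probe in DBTRG (-1.51 against -0.996). For the line difference, 21 of 26 had the same sign, 7 were called lower and 0 higher. The called probes were of CDC25C, NUSAP1 and UBE2C, whose brightest probes were not called, and of CDK1, CENPE and FOXM1. Second probes of the called genes BIRC5, CENPA, DLGAP5, INCENP, MAD2L1, NEK2 and SPC25 were not called.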

How the data were processed

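Messenger RNA was measured on 12 Illumina bead arrays in 6 groups of 2. The authors deposited, per the file headers, an intensity signal and a detection p-value for each of 47323 probes and each array, with no normalisation between arrays visible in the signals. The authors also deposited a log2 table for these arrays, with a normalisation that is not stated, and it served as an alternative. GenomeStudio is named in the submitters' processing notes without a version. Columns were matched to samples by title, and 0 value columns were left unmatched.

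Signals were processed in R 4.3.3 with limma 3.58.1: normexp background correction from the detection p-values, an offset of 16, quantile normalisation and log2. The offset understates changes of dim probes. Probes with a detection p-value under 0.01 on at least 2 arrays were kept (19354). Of the probes on the array, 30113 had 1 symbol in the platform annotation, 8 had several and were not used, and 4101 kept probes had no single symbol. The brightest kept probe stood for each of 11423 genes, of which 3061 had several. The 6 group means were fitted to 12 arrays (6 residual and 4.35 prior degrees of freedom), with two-sided moderated tests adjusted by Benjamini-Hochberg over all 11423 genes. "At least" folds compare the bright group's mean with, per dim array, the probe's value or the array's lowest detected one, whichever is higher. The number of arrays limits the precision. The fit was tested on simulated data.

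The genes, their roles and the lists were chosen with earlier results of these data known. Values on every array are printed for the genes with the largest and smallest DBTRG change of each role and for the 4 smallest p-values of the line difference; genes outside the set are CDKN1A, GADD45A and at most the 3 smallest p-values of each list and line. Alternatives were other scalings, the authors' table, no filter, no background correction, fewer arrays, array weights, the median over probes, replicate blocks and each array left out. The difference of the first less the second array was taken within each group. Between the groups compared, these differences correlated at -0.06 to 0.11 over the genes. Same-numbered arrays, with 2 pairs a comparison, were thus not treated as paired.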

Additional observations from a re-analysis of the deposited data

Results flagged for a closer look

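The change with Y15 differed between the lines, by the test of that difference, in 22 of the 48 genes. All 22 had the lower change in DBTRG, where 7.56% of all genes were called in that direction. The DBTRG change less the U87 change was -1.12 for CCNA2, -0.84 for CCNB1, -0.85 for CCNB2 and -0.92 for CDK1 among the cyclin-CDK genes. It was -0.77 for NEK2, -0.87 for BUB1B and -0.82 for MAD2L1 among kinases and checkpoint genes, and -1.68 for ESPL1 and -0.98 for CDCA3 in anaphase control. The passenger complex had -0.65 for AURKB, -0.71 for BIRC5 and -1.03 for CDCA8. The fitted INCENP value of -1.10 rests on DBTRG Y15 arrays that did not detect its probe, and is -0.87 with that fall at its bound. At the kinetochore the differences were -1.23 for SPC25, -1.06 for CENPA and -0.58 for CENPE. The remaining values were -0.73 for TPX2, -0.73 for DLGAP5, -1.37 for ANLN, -0.75 for PRC1, -1.02 for FOXM1 and -1.09 for MKI67. All 22 are lower changes in DBTRG with quantile normalisation, and the scaling alternatives given under processing change many of them. For ESPL1 the direction in the lines was opposite, with both treated DBTRG arrays below and both treated U87 arrays above the untreated arrays of their line.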

How the results depend on the processing

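With each array centred on the median of all its probes, the all-gene median moved to 0.11 for Y15 in DBTRG, -0.60 for Y15 in U87, -0.48 for untreated DBTRG against U87 and 0.70 for the line difference. Genes called lower then numbered 45 for Y15 in U87, 20 for untreated lines (4 higher) and 1 for the line difference (5 higher), and 16 were called for both drugs against Y15. Under that centring ESPL1 with Y15 in U87 was -0.0948. Untreated lines gave -0.192 for CCNB1, -0.0983 for CDCA3, -0.541 for CDCA5, -0.216 for SMC2, -0.127 for TOP2A and -0.187 for TPX2. The line difference gave 0.0064 for CCNB1, 0.715 for PLK1, 0.0713 for NEK2, 0.0081 for MAD2L1, 0.158 for AURKB, 0.08005 for BIRC5, 0.776 for NCAPG, 0.687 for SMC4, 0.282 for CENPE, 0.0646 for TPX2 and 0.0969 for DLGAP5. With the median over probes, SMC2 in untreated lines was -0.0500. Centring on kept probes, an alternative chosen after seeing the data, gave 42 lower in DBTRG, 30 in U87 and 18 for the line difference.

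Leaving out 1 array at a time gave 41 to 45 lower for Y15 in DBTRG, 14 to 19 for Y15 in U87, 17 to 21 for both drugs, 21 to 25 for both against TMZ, 5 to 8 lower and 14 to 16 higher for untreated lines, and 13 to 23 for the line difference, with fewer arrays in each fit. For the line difference the lowest count was without the second U87 Y15 array, and for Y15 in U87 without the second untreated U87 array (14). With the replicate number as a block the counts were 44, 28 and 27 lower for Y15 in DBTRG, Y15 in U87 and both drugs, and 21 for the line difference, so the block moved no count by over 1.5 times. In DBTRG all 44 calls kept their direction under all 13 alternatives and 39 stayed called; CKS1B, CKS2, CDC20, UBE2C and PLK1 lost the call under at least 1. Of 30 calls in U87, 12 stayed under all 13: ASPM, BUB1, CCNA2, CENPA, CENPE, CENPF, NCAPD2, NCAPG, SMC2, SMC4, TOP2A and TPX2. TMZ alone called 0 genes in all of them. With 2 arrays a group, dim probes such as those of CDC25C, INCENP and MKI67 are the least certain.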
